A study of Caenorhabditis elegans with 15 samples.

Results

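The cilia and intraflagellar transport genes of Caenorhabditis elegans described here are 40 named genes, chosen by name and by their place in the machinery that builds and maintains cilia. A gene was read from probe sets that name it alone, and where there were several, from the one with the highest mean over all arrays. By this rule 39 of the 40 genes were measured, out of 17118 genes measured in all, and *ift-20* was not analysed here. Total RNA came from pools of wild-type N2 (Bristol) hermaphrodites, for which the labels name no transgene or deletion, fed DA837 bacteria and grown at 20 °C. The 3 groups, of 5 arrays each, were late fourth-stage larvae that were moving and feeding (L4, 42 h after arrested L1 animals were fed), animals in the lethargus that ends this stage (L4-lethargus, 45 to 50 h after feeding, collected 30 to 40 min into the arrest of pharyngeal pumping) and young adults (Adult). Animals were picked by hand in batches of 20, and each array held whole animals, so every value sums over all tissues. The RNA of a pool was 22.3 ng in L4, 18.6 ng in lethargus and 75.3 ng in Adult, with an RNA integrity minimum of 5.

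In this worm cilia are found at the dendrite tips of a subset of sensory neurons, where they hold the receptors for chemicals, touch and temperature, and no cell has a motile cilium. Intraflagellar transport (IFT) builds them: kinesin-2 motors carry trains of IFT-A and IFT-B protein complexes from the base to the tip, and a cytoplasmic dynein brings them back. The BBSome, a complex named after Bardet-Biedl syndrome, moves with the trains and links membrane cargo to them, and the transition zone at the ciliary base acts as a gate. The RFX transcription factor DAF-19 switches most of these genes on through a promoter element called the X-box. Lethargus is the quiet period of a larval molt, when animals neither feed nor move about.

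Levels are log2 expression values, so a difference of 1 is a doubling, and levels are not compared between genes because probe sets differ in brightness. A mean below 5.56 was treated as not above background; control probes against foreign transcripts read lower than this in 95 percent of their values. By that bound 16 of the 39 genes lay below background at all 3 stages, 20 lay above it at all 3, and *daf-10*, *nphp-4* and *tub-1* crossed it. Differences were tested with limma across all 22548 probe sets other than controls, and a gene is said to have risen or fallen where its adjusted p was 0.05 or less. Array medians were 7.41 to 7.54 in L4 and lethargus and 7.22 to 7.31 in Adult, so Adult differences depend on how arrays are scaled. Mean correlation with the other arrays of a stage was 0.987 to 0.995. The lowest value was shared by Adult replicate 2 and lethargus replicate 1, which was the lethargus array nearest to L4 on the first principal component. The 3 stage comparisons share arrays and are not independent of each other.

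In lethargus against L4, 6 of the 39 genes rose and 2 fell, and the median difference was 0.07 (log2). Over all genes 16.0% rose and 15.6% fell in that comparison (31.6% in either direction), with a median of 0.00, so the share of the set that rose (15.4%) was near the background. In lethargus against Adult, 14 rose and 4 fell, with a median of 0.18, where 26.2% of all genes rose, 31% fell (57.3% together) and the median was -0.08. In Adult against L4, 3 rose and 8 fell, with a median of -0.11, where 30.8% of all genes rose, 28.7% fell (59.5% together) and the median was 0.08. Without Adult replicate 2 the Adult against L4 count was 3 rises and 10 falls, with a median of -0.14. Over all genes 30.9% rose and 29.8% fell there. With array quality weights lethargus against Adult held 20 rises and 4 falls, where 30.2% of all genes rose and 35% fell. Under median-centring of each array it held 9 rises and 10 falls, where 19% of all genes rose and 53.7% fell. Under scaling to the hybridisation controls it held 8 and 9, where 17.7% and 53.7% did. Counting over the 3 stage comparisons, 18 of the 39 genes were called in none, 7 in 1, 12 in 2 and 2 in all 3. The like counts over all genes were not computed, so these have no background beside them.

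**Figure D1:**
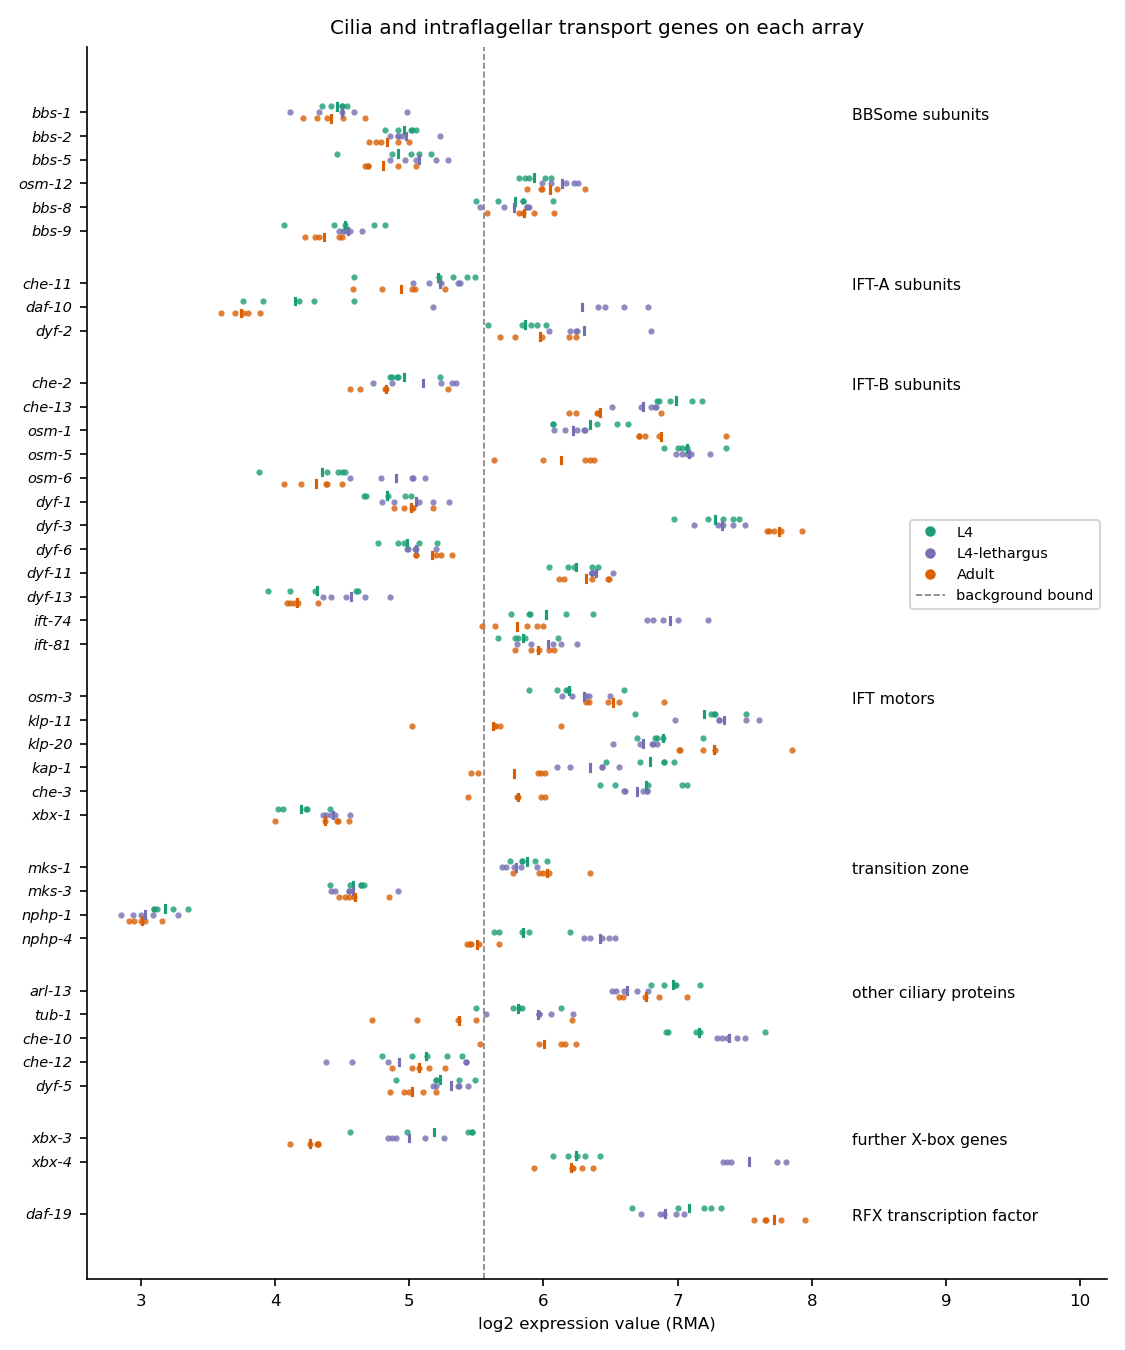
Level of each of the 39 measured genes on each of the 15 arrays (x axis, log2 expression value; rows, genes grouped by role). Points are arrays, coloured by stage, short bars are stage means (n = 5) and the dashed line is the background bound of 5.56. The lethargus points of *daf-10*, *ift-74* and *xbx-4* lie to the right of both other stages, and the Adult points of *klp-11*, *che-10* and *osm-5* lie to the left.

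The genes that rose in lethargus above both other stages were *daf-10*, *ift-74*, *xbx-4*, *nphp-4* and *osm-6*. They come from different parts of the machinery. The largest difference among the members was that of *daf-10*, which encodes an IFT-A subunit whose mutants fail to form dauer larvae. Its 5 L4 values were 3.91, 3.76, 4.18, 4.29 and 4.59. In lethargus they were 6.41, 6.78, 6.46, 5.18 and 6.60, and in Adult 3.80, 3.76, 3.70, 3.60 and 3.89. All L4 and Adult arrays were below background, 4 of the 5 lethargus arrays lay well above it, and replicate 4 of lethargus lay below it but still above every array of the other stages. The log2 difference was 2.14 (SE 0.23) against L4 and 2.53 (SE 0.23) against Adult (limma adjusted p = 3.47e-06 and 2.17e-07), at least 1.65-fold in both cases. Because whole animals were measured, more cells with the transcript and more transcript per cell cannot be told apart, here or in any result that follows.

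The other IFT-A genes differed less. *che-11* was below background at all stages and differed by 0.02 from L4 to lethargus (95% interval -0.32 to 0.36). *dyf-2*, which encodes another IFT-A subunit, had L4 values of 5.59, 5.95, 5.84, 6.02 and 5.91 and lethargus values of 6.20, 6.25, 6.80, 6.04 and 6.24. The stages did not overlap, and the difference of 0.45 (SE 0.14) was called (1.36-fold, adjusted p = 0.0425). The call was lost without L4 replicate 1, 2, 3 or 5, lethargus replicate 2, 3 or 5 or Adult replicate 5 (8 single arrays, adjusted p 0.0559 to 0.12). It was also lost under median-centring and after quantile normalization again (0.40 in both, adjusted p = 0.0726 and 0.0772), and the mean of the gene's probe sets gave 0.19 (adjusted p = 0.202). The Adult values of 5.79, 6.24, 6.19, 5.68 and 5.99 overlapped those of lethargus, and the difference of 0.33 was not called. A second probe set of the gene, below background, differed by -0.07 in lethargus against L4. In lethargus against Adult it was called lower (-0.27, limma adjusted p = 0.0194), opposite in sign to the first.

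Among the 12 measured IFT-B genes, *ift-74* and *osm-6* rose in lethargus against L4 and none fell (0 also at an unadjusted p under 0.05). *ift-74* encodes a core subunit that pairs with IFT-81 and binds tubulin in other species. Its L4 values were 5.76, 6.17, 5.89, 6.37 and 5.90. The lethargus values of 6.82, 6.89, 7.23, 6.77 and 7.00 were all higher, and the Adult values of 5.64, 5.54, 5.95, 5.88 and 6.00 overlapped those of L4. The rise was 0.92 (SE 0.13) against L4, or 1.89-fold (adjusted p = 5.1e-05), and 1.14 (SE 0.13) against Adult, or 2.2-fold (adjusted p = 2.07e-06). For *ift-81* the 2 probe sets disagreed. The brighter differed by 0.19 against L4 (adjusted p = 0.352), and the other rose by 0.45 against L4 (adjusted p = 0.00225) and by 0.58 against Adult (adjusted p = 0.000108).

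*osm-6* encodes the worm homologue of IFT52, a subunit needed for the IFT-B core. Its lethargus values of 5.03, 5.12, 5.02, 4.79 and 4.56 were above its L4 values of 4.39, 3.88, 4.47, 4.52 and 4.50 and its Adult values of 4.07, 4.50, 4.38, 4.39 and 4.19 on every array. The differences were 0.55 (SE 0.14) and 0.60 (SE 0.14) (adjusted p = 0.0089 and 0.00231), but all stage means lay below background, so no fold is given. The difference from Adult was 0.34 under median-centring of the arrays and 0.32 under scaling to the hybridisation controls, and was then not called (adjusted p = 0.0524 and 0.169).

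*xbx-4*, named for the X-box in its promoter, had L4 values of 6.07, 6.25, 6.31, 6.18 and 6.42. In lethargus it stood at 7.37, 7.34, 7.81, 7.74 and 7.40, and in Adult at 6.22, 6.37, 5.93, 6.29 and 6.21. Lethargus was higher than both on every array, and L4 and Adult overlapped. The rise was 1.29 (SE 0.11) against L4 (2.44-fold, adjusted p = 2.42e-07) and 1.33 (SE 0.11) against Adult (2.51-fold, adjusted p = 7.67e-08). *xbx-3* and *xbx-1*, which carry that name too, were not called in lethargus against L4 (-0.19 and 0.24, adjusted p = 0.794 and 0.159).

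Of the 4 transition zone genes, *nphp-4* rose in lethargus, and the others were not called in any comparison on the values as deposited. It encodes the worm homologue of nephrocystin-4, which helps anchor the ciliary base to the membrane. Its L4 values were 5.63, 5.67, 5.89, 6.20 and 5.84, its lethargus values 6.30, 6.53, 6.35, 6.49 and 6.44 and its Adult values 5.43, 5.52, 5.67, 5.45 and 5.46. Every lethargus array was above every other array, and the L4 and Adult arrays overlapped slightly. The rise was 0.57 (SE 0.10) against L4 (1.49-fold, adjusted p = 0.000445) and 0.91 (SE 0.10) against Adult (at least 1.81-fold, adjusted p = 1.38e-06). A second probe set, below background, rose by 0.63 and 1.34 (adjusted p = 0.0227 and 1.36e-05). *nphp-4* also fell from L4 to Adult by 0.34 (adjusted p = 0.014), a difference that became 0.00 under scaling to the hybridisation controls and was then not called. *nphp-1*, whose product works with NPHP-4, and *mks-3* lay below background at all stages, and *mks-1* had means of 5.88 ± 0.11, 5.79 ± 0.10 and 6.03 ± 0.21 in the order L4, lethargus, Adult (SD, n = 5 each). Across *mks-1*, *mks-3* and *nphp-1* the difference of lethargus from L4 ran from -0.15 to 0.00. Scaled to the hybridisation controls, *mks-1* and *mks-3* were called higher in Adult than in L4 (0.49 and 0.36, adjusted p = 0.00166 and 0.016), and with cyclic loess *nphp-1* was called lower (-0.31, adjusted p = 0.00787).

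The 2 genes that fell in lethargus against L4 were *kap-1* and *arl-13*, each by a small amount. *kap-1* encodes the non-motor subunit of heterotrimeric kinesin-2 and fell by 0.44 (1.36-fold, adjusted p = 0.0334), with overlapping arrays. *arl-13* encodes a small GTPase of the ciliary membrane whose human homologue is mutated in Joubert syndrome. Its L4 values of 6.90, 7.17, 6.98, 6.80 and 6.99 were all above its lethargus values of 6.51, 6.70, 6.78, 6.54 and 6.60. The fall was 0.34 (1.27-fold, adjusted p = 0.0304). Both calls were lost under scaling to the hybridisation controls (-0.38 and -0.27, adjusted p = 0.137 and 0.123). That of *kap-1* was also lost without L4 replicate 2, 4 or 5 or lethargus replicate 1 or 3 (adjusted p 0.0814 to 0.09). That of *arl-13* was lost without L4 replicate 2, 3 or 5 or lethargus replicate 1, 4 or 5 (adjusted p 0.0532 to 0.0862), and neither remained without L4 replicate 2 or 5 or lethargus replicate 1.

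**Figure D2:**
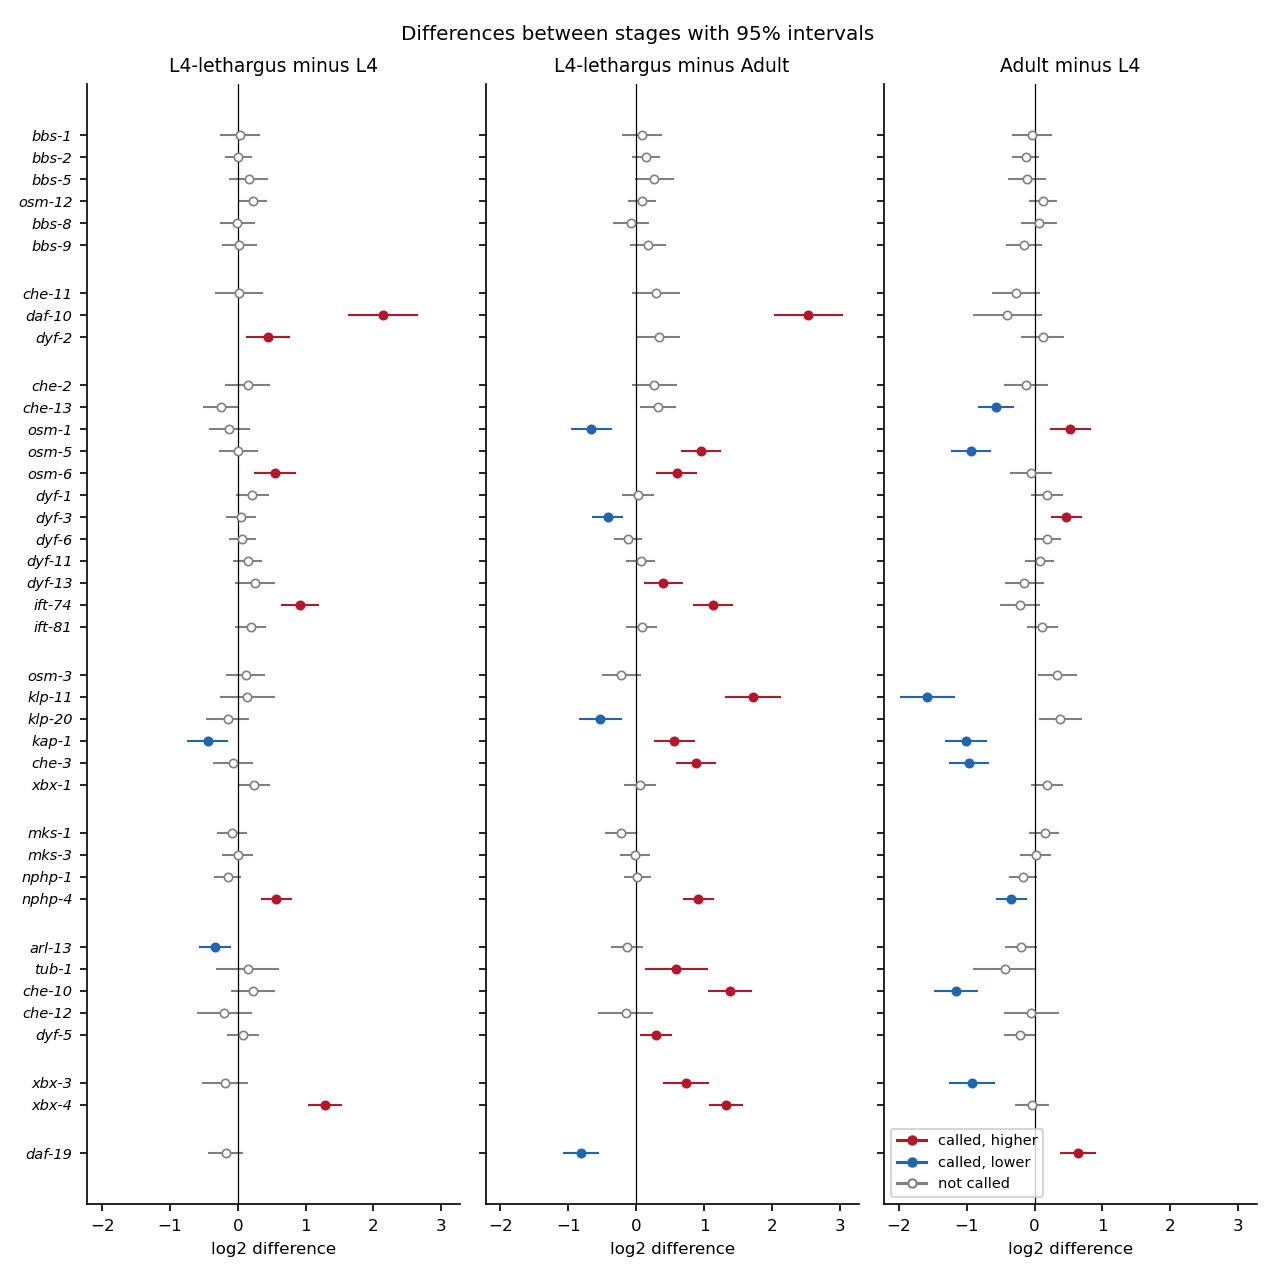
Log2 difference of each measured gene between stages (x axes), with its 95% interval, for lethargus minus L4, lethargus minus Adult and Adult minus L4. Filled points passed the limma threshold and open points did not. *daf-10* has the largest difference in the first panel, at 2.14, and *klp-11* the lowest in the last, at -1.58; that of *nphp-4* in the last panel becomes 0.00 under scaling to the hybridisation controls.

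Of the 6 motor genes, *klp-11*, *kap-1* and *che-3* fell from L4 to Adult, and *osm-3*, *klp-20* and *xbx-1* were not called. Scaled to the hybridisation controls, these 3 were called higher in Adult (0.68, 0.72 and 0.52, adjusted p = 0.000898, 0.00014 and 0.00193). *klp-11* encodes a motor subunit of heterotrimeric kinesin-2, the motor that works with OSM-3 on the middle part of the cilium. Its L4 values were 7.28, 7.51, 6.68, 7.25 and 7.27. Lethargus, at 7.51, 6.98, 7.31, 7.31 and 7.61, overlapped L4, and Adult, at 5.64, 5.02, 5.64, 5.68 and 6.13, was below both on every array. The fall was 1.58 on the log2 scale, 2.98-fold (SE 0.19, adjusted p = 2.48e-06), and lethargus was 3.3-fold above Adult (adjusted p = 1.2e-06). The 3 other probe sets of the gene fell from L4 to Adult by 1.28, 1.06 and 0.38, and all were called. All 4 probe sets of *klp-11* are of kinds that share probes with other transcripts.

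*kap-1* had L4 values of 6.47, 6.97, 6.72, 6.90 and 6.90, lethargus values of 6.10, 6.44, 6.20, 6.56 and 6.44 and Adult values of 6.01, 5.46, 5.96, 5.51 and 5.98. Every Adult array lay below every other array. The fall from L4 to Adult was 1.01, or 2.01-fold (adjusted p = 1.13e-05). Lethargus was 1.48-fold above Adult (adjusted p = 0.00352), a difference that was not called under median-centring or scaling to the hybridisation controls (0.31 and 0.29, adjusted p = 0.099 and 0.184). *klp-20* encodes the partner motor subunit in the same kinesin. It did not follow *klp-11* and *kap-1*: lethargus was below Adult on every array, by 0.53 (1.44-fold, adjusted p = 0.00809), and Adult differed from L4 by 0.38 (adjusted p = 0.057). Its second probe set gave -0.48 for lethargus against Adult (adjusted p = 0.00763). *osm-3*, the kinesin-2 that reaches the distal tip alone, had stage means of 6.19 ± 0.26, 6.30 ± 0.14 and 6.52 ± 0.24 (SD, n = 5 each).

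*che-3* encodes the heavy chain of the dynein that returns the trains to the base. Its L4 values were 6.53, 6.78, 6.42, 7.03 and 7.07, its lethargus values 6.77, 6.77, 6.60, 6.74 and 6.61 and its Adult values 6.01, 5.80, 5.98, 5.44 and 5.81. Adult was below both other stages on every array, by 1.94-fold against L4 and 1.85-fold against lethargus (adjusted p = 1.45e-05 and 3.95e-05). The gene of the light intermediate chain of that dynein, *xbx-1*, was below background, with a difference from L4 to Adult of 0.18 (95% interval -0.04 to 0.40).

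*che-10* and *osm-5* were also lower in Adult, but for each a second probe set disagreed in size. *che-10* encodes the worm homologue of rootletin, the protein of the ciliary rootlet. Its L4 values were 6.91, 7.65, 6.93, 7.17 and 7.14 and its lethargus values 7.44, 7.29, 7.37, 7.50 and 7.33. All Adult values, 5.97, 6.24, 6.16, 5.53 and 6.13, were lower. The fall from L4 was 1.16, or 2.23-fold (adjusted p = 4.82e-06), and lethargus was 2.6-fold above Adult (adjusted p = 8.35e-07). The probe set that shares no probes gave -0.20 for Adult against L4 (adjusted p = 0.0791) and 0.41 for lethargus against Adult (adjusted p = 0.00077).

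*osm-5* encodes the homologue of IFT88, the protein lost in the Oak Ridge polycystic kidney mouse. Its values were 7.00, 7.36, 6.90, 7.07 and 7.03 in L4, 6.99, 7.07, 7.24, 7.03 and 7.10 in lethargus and 6.38, 6.31, 6.35, 5.63 and 6.00 in Adult. Adult was lower than both on every array, by 1.91-fold against L4 and 1.93-fold against lethargus (adjusted p = 1.81e-05 and 1.83e-05). The second probe set, which shares no probes and lay above background, gave -0.08 and 0.00 and was not called, so the 2 probe sets of *osm-5* do not report the same change. *che-13*, homologue of IFT57, fell from L4 to Adult by 0.57 (1.48-fold, adjusted p = 0.00118), with Adult replicate 2 inside the L4 range. Under scaling to the hybridisation controls that fall was 0.22 and not called (adjusted p = 0.266). Its second probe set, below background, was not called.

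*xbx-3* lay below background at all stages, yet its Adult values of 4.11, 4.32, 4.32, 4.31 and 4.26 were under all of its L4 values of 5.44, 4.56, 4.98, 5.47 and 5.47. The difference was -0.92 (SE 0.15) (adjusted p = 0.000117), and lethargus exceeded Adult by 0.74 (adjusted p = 0.00111). The latter was not called under scaling to the hybridisation controls (0.46, adjusted p = 0.0596). Lethargus also exceeded Adult for *tub-1*, the tubby homologue (at least 1.31-fold, adjusted p = 0.0484), for *dyf-13*, an IFT-B gene (0.40, adjusted p = 0.0258), and for the kinase gene *dyf-5* (0.29, adjusted p = 0.0496). These 3 calls were near the threshold. The *tub-1* call was lost without any single array other than Adult replicate 2, L4 replicate 2 or 5 and lethargus replicate 1 (adjusted p up to 0.149). That of *dyf-5* was lost without Adult replicate 1, 2, 4 or 5, L4 replicate 1, 3 or 4 or lethargus replicate 1, 2 or 3 (up to 0.127), and that of *dyf-13* without Adult replicate 3, 4 or 5 or lethargus replicate 4 or 5 (up to 0.0785). Under scaling to the hybridisation controls none of the 3 was called by limma, with 0.31 for *tub-1*, 0.13 for *dyf-13* and 0.01 for *dyf-5* (adjusted p = 0.367, 0.936 and 1), and under median-centring they were 0.33, 0.15 and 0.04 (adjusted p = 0.269, 0.522 and 1).

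Against these falls, *daf-19*, *osm-1* and *dyf-3* rose from L4 to Adult. DAF-19 is the RFX factor that acts on the other genes through their X-boxes. The L4 values of *daf-19* were 7.32, 7.00, 6.66, 7.20 and 7.25 and its lethargus values 6.99, 6.87, 6.73, 6.90 and 7.05. All Adult values, 7.65, 7.95, 7.77, 7.57 and 7.66, were higher. The rise from L4 was 0.64 (SE 0.12), or 1.56-fold (adjusted p = 0.000329), and lethargus was 1.76-fold below Adult (adjusted p = 3.05e-05). A second probe set gave 0.79 and -0.60, both called. Neither probe set was called in lethargus against L4.

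*osm-1* encodes the homologue of IFT172, the largest IFT-B protein. Its Adult values of 6.71, 7.36, 6.86, 6.71 and 6.76 were above its L4 values of 6.07, 6.55, 6.07, 6.40 and 6.63 and its lethargus values of 6.16, 6.30, 6.31, 6.08 and 6.25. The rise from L4 was 0.53 (SE 0.14), or 1.45-fold (adjusted p = 0.00508), and lethargus was 1.58-fold below Adult (adjusted p = 0.000962). *dyf-3*, a clusterin-associated protein homologue in IFT-B, stood at 6.97, 7.41, 7.46, 7.23 and 7.34 in L4 and at 7.68, 7.93, 7.67, 7.72 and 7.77 in Adult. Adult was higher on every array, by 1.39-fold (adjusted p = 0.00113), and lethargus was 1.34-fold below Adult (adjusted p = 0.00322). Within the IFT-B genes, Adult against L4 therefore held 2 rises, 2 falls and 8 genes that were not called.

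The 6 BBSome genes were not called by limma in any comparison on the values as deposited with all arrays weighted alike, and at an unadjusted, undoubled p under 0.05 only *osm-12* was, in lethargus against L4. *osm-12* and *bbs-8* were above background, and *bbs-1*, *bbs-2*, *bbs-5* and *bbs-9* were below it at all stages. Their differences ran from -0.01 to 0.22 between lethargus and L4, from -0.07 to 0.27 between lethargus and Adult and from -0.16 to 0.13 between Adult and L4. The 95% intervals of the 6 genes reached from -0.25 to 0.43, from -0.32 to 0.54 and from -0.40 to 0.32 in the same order. *osm-12*, the BBS7 homologue, had L4 values of 5.86, 5.82, 6.01, 5.89 and 6.06 and lethargus values of 6.23, 6.26, 6.06, 6.17 and 5.99, which overlapped at their edges (adjusted p = 0.143). Other settings called 5 of the 6. In Adult against L4, *osm-12* was 0.47 and *bbs-8* 0.41 under scaling to the hybridisation controls (adjusted p = 0.00139 and 0.00609), and *bbs-9* was -0.27 without L4 replicate 3 (adjusted p = 0.0397). In lethargus against Adult, *bbs-2* was 0.22 and *bbs-5* 0.29 with array weights (adjusted p = 0.0312 and 0.0438). For *bbs-8* the 3 stages overlapped throughout, at 5.78 ± 0.22, 5.78 ± 0.16 and 5.85 ± 0.18 (SD, n = 5 each).

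The remaining IFT-B and axonemal genes were not called on the values as deposited. Of the IFT-B genes, *che-2*, *dyf-1* and *dyf-6* were below background, and *dyf-11*, a homologue of the TRAF3-interacting protein that joins the complex early, stood at 6.24 ± 0.15, 6.39 ± 0.07 and 6.32 ± 0.17 in L4, lethargus and Adult. *che-12*, which encodes a TOG-domain protein of the axoneme, was below background at all stages. Under scaling to the hybridisation controls *dyf-1*, *dyf-6* and *dyf-11* were called higher in Adult than in L4 (0.53, 0.53 and 0.42), and *dyf-6* was called lower in lethargus than in Adult (-0.40, adjusted p = 0.00115). *che-2* was called higher in lethargus than in Adult with array weights or without Adult replicate 2 (0.34 and 0.39, adjusted p = 0.0383 and 0.0338). Over all 31 genes not called in lethargus against L4, differences lay between -0.25 and 0.25, with interval limits from -0.59 to 0.60.

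Lethargus was also set against the midpoint of L4 and Adult. No hour is given here for Adult, so a gene that drifts steadily with age need not lie at this midpoint. The comparison cannot tell such drift from a change particular to lethargus. Of the 39 genes, 11 rose above this midpoint and 2 fell below it, with a median of 0.13. Over all genes 18.8% rose, 23.6% fell (42.4% together) and the median was -0.07. The members with the largest rises were *daf-10* (2.34), *xbx-4* (1.31), *ift-74* (1.03), *klp-11* (0.93) and *che-10* (0.80). *daf-19* (-0.50, adjusted p = 0.00163) and *osm-1* (-0.39, adjusted p = 0.0231) were the falls, and the latter call was lost without lethargus replicate 1 or 4 (adjusted p 0.0567 to 0.0673). The second probe set of *daf-19* gave -0.20 and was not called (adjusted p = 0.102), and the unshared probe set of *che-10* gave a rise of 0.31. For *klp-11* and *che-10* the L4 and lethargus arrays overlapped and Adult alone was low.

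Genes near background were called less often than brighter ones, so the counts were also split by brightness. Of the 22 members whose mean over the 15 arrays was at or above the background bound, 4 rose and 2 fell in lethargus against L4, where 19.9% and 19.5% of all genes of that kind did. In lethargus against Adult 9 rose and 4 fell, beside 33.3% and 36.2%. In Adult against L4 3 rose and 7 fell, beside 34.7% and 36.4%. Against the midpoint 8 rose and 2 fell, beside 23.7% and 29.1%. Of the 17 dimmer members, 2 rose in lethargus against L4, 5 against Adult and 3 against the midpoint, beside 6.81%, 9.94% and 7.32% of dim genes. On the values as deposited, none of the 17 fell in these comparisons by limma's adjusted p, beside 6.68%, 19.2% and 11.1% of dim genes. In Adult against L4 none of the 17 rose and 1 fell by that threshold, beside 21.9% and 10.9%. These counts of the members were the same at an unadjusted p under 0.05, for which shares over dim genes were not computed. Under median-centring *dyf-6* and *mks-3* were called lower in lethargus than in Adult (-0.37 and -0.27, adjusted p = 0.0075 and 0.0299), and *dyf-1*, *dyf-6* and *xbx-1* were called higher in Adult than in L4 (0.39, 0.40 and 0.39).

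Scaling changed the direction of the list as a whole in the comparisons with Adult. Under median-centring of each array the count for Adult against L4 was 12 rises and 7 falls with a median of 0.10. Over all genes 49.3% rose and 22.6% fell under that scaling. Under scaling to the hybridisation controls the count was 15 rises and 6 falls with a median of 0.23, where 57.5% of all genes rose and 18.6% fell. The median over all genes moved with that of the members, from 0.08 to 0.29 and 0.42. These scalings shift every gene of an array alike, so the gap between the members' median and that of all genes, -0.19, is fixed by construction. It was -0.12 under cyclic loess and -0.15 after quantile normalization again, which can move it. For lethargus against Adult the counts under median-centring were 9 rises and 10 falls, where 19% of all genes rose and 53.7% fell. Under control scaling they were 8 rises and 9 falls, where 17.7% of all genes rose and 53.7% fell. The gap there was 0.26 as deposited, 0.24 under cyclic loess and 0.21 after quantile normalization again. The falls of *klp-11*, *kap-1*, *che-3* and *xbx-3* and the rises of *daf-19*, *osm-1* and *dyf-3* from L4 to Adult were called under every alternative in which the gene was fitted, a fold minimum aside. The filter on shared probes did not test *klp-11*, *kap-1*, *che-3*, *daf-19* and *dyf-3*, which were read from shared-probe probe sets only. The calls of *osm-5* and *che-10*, which also have an unshared probe set, were lost under it. The filter on dim probe sets kept only the 9 brightest members, so it did not test *kap-1*, *che-3*, *osm-1* and *xbx-3*.

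Other cell types moved between the stages too. The counts of their markers stand beside 16.0% of all genes that rose and 15.6% that fell in lethargus against L4. In Adult against L4 these shares were 30.8% and 28.7%. Of 17 pan-neuronal markers, none was called by limma in lethargus against L4 (median -0.01, and 2 at an unadjusted p under 0.05), while 12 fell and 1 rose from L4 to Adult (median -0.98). Examples are *egl-21*, a peptide-processing enzyme, at -1.37, and *rab-3*, a synaptic vesicle GTPase, at -0.98. Their summed linear level was 14132 to 16613 in L4, 15169 to 16610 in lethargus and 8555 to 9110 in Adult, and 2 of the 17 were below background at all stages. The cilia genes' own sum was 2354 to 2718, 2764 to 2941 and 2143 to 2708. Of 20 germline and oocyte markers, 14 rose in lethargus against L4 and 19 rose in Adult against L4 (medians 1.20 and 2.57), and their sums ran from 19531 to 32292, from 35429 to 49288 and from 78376 to 81349. Of 8 markers of amphid sheath and socket glia, which wrap the ciliated endings, 2 rose and 3 fell in lethargus and 6 fell in Adult against L4. Intestine markers (7) gave 2 rises and 5 falls, and body wall muscle markers (6) 4 falls, in Adult against L4. The part of these shifts in the differences of the cilia genes was not tested.

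**Figure D3:**
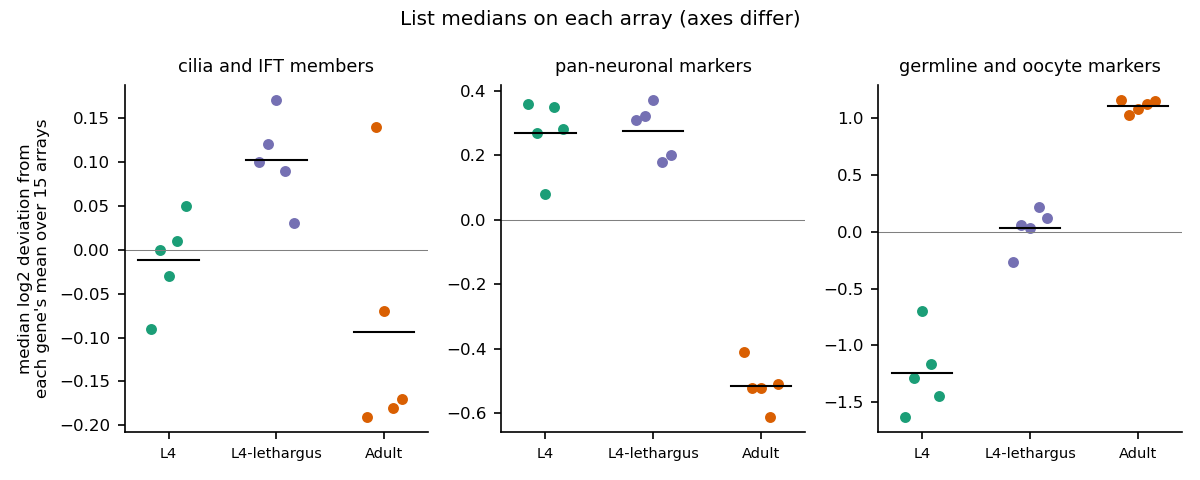
Median deviation of a gene list on each array from each gene's mean over the 15 arrays (y axes, log2, scales differ), for the cilia genes, pan-neuronal markers and germline and oocyte markers by stage, with bars at stage means. The cilia genes lie between -0.09 and 0.05 in L4, 0.03 and 0.17 in lethargus and -0.19 and 0.14 in Adult on the values as deposited; median-centring and control scaling raise Adult relative to L4.

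On single arrays the list's median deviation from the genes' own means was -0.09 to 0.05 in L4, 0.03 to 0.17 in lethargus and -0.19 to 0.14 in Adult. The highest Adult value was that of replicate 2, and the other Adult arrays lay between -0.19 and -0.07. The pan-neuronal markers separated more clearly, with all Adult arrays between -0.61 and -0.41 and the other arrays between 0.08 and 0.37. Controls for RNA quality ordered the stages differently. The log2 gap between 3' and 5' probe sets of the ubiquitin control had a mean of 4.63 ± 0.10 over the L4 arrays, 4.38 ± 0.12 over those of lethargus and 4.28 ± 0.19 over the Adult arrays (SD, n = 5). The catalase control was also lowest in Adult, at 3.22 ± 0.32, 3.05 ± 0.17 and 2.67 ± 0.26, whereas GAPDH was highest there, at 0.12 ± 0.12, 0.06 ± 0.07 and 0.29 ± 0.12. Actin stood at 0.05 ± 0.08, 0.04 ± 0.04 and 0.12 ± 0.09.

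Other genes of the cilium, listed by function, were read in the same way. Of 10 further IFT, BBS and transport regulator genes, none was called by limma in lethargus against L4 (2 at an unadjusted p under 0.05). Over all genes 16.0% rose and 15.6% fell in that comparison. In Adult against L4, 3 of the 10 rose and 4 fell, beside 30.8% and 28.7% of all genes. *ifta-1*, an IFT-A-associated gene, rose 2.61-fold (adjusted p = 6.29e-07) and *dyf-17* rose 2.07-fold. Of 10 further transition zone and basal body genes, *tmem-231*, a component of the Meckel-Gruber syndrome module, was the 1 that rose in lethargus. Its mean was 6.31 ± 0.31 in lethargus, 4.47 ± 0.19 before it and 3.71 ± 0.29 in adults (SD, n = 5), a difference of 1.84 and 2.60 (adjusted p = 1.86e-07 and 1.42e-09) and at least 1.68-fold. Like *daf-10*, it was above background in lethargus and below it in the other stages. *hyls-1*, which encodes a centriole protein needed to start a cilium, rose 2.12-fold from L4 to Adult.

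**Figure D4:**
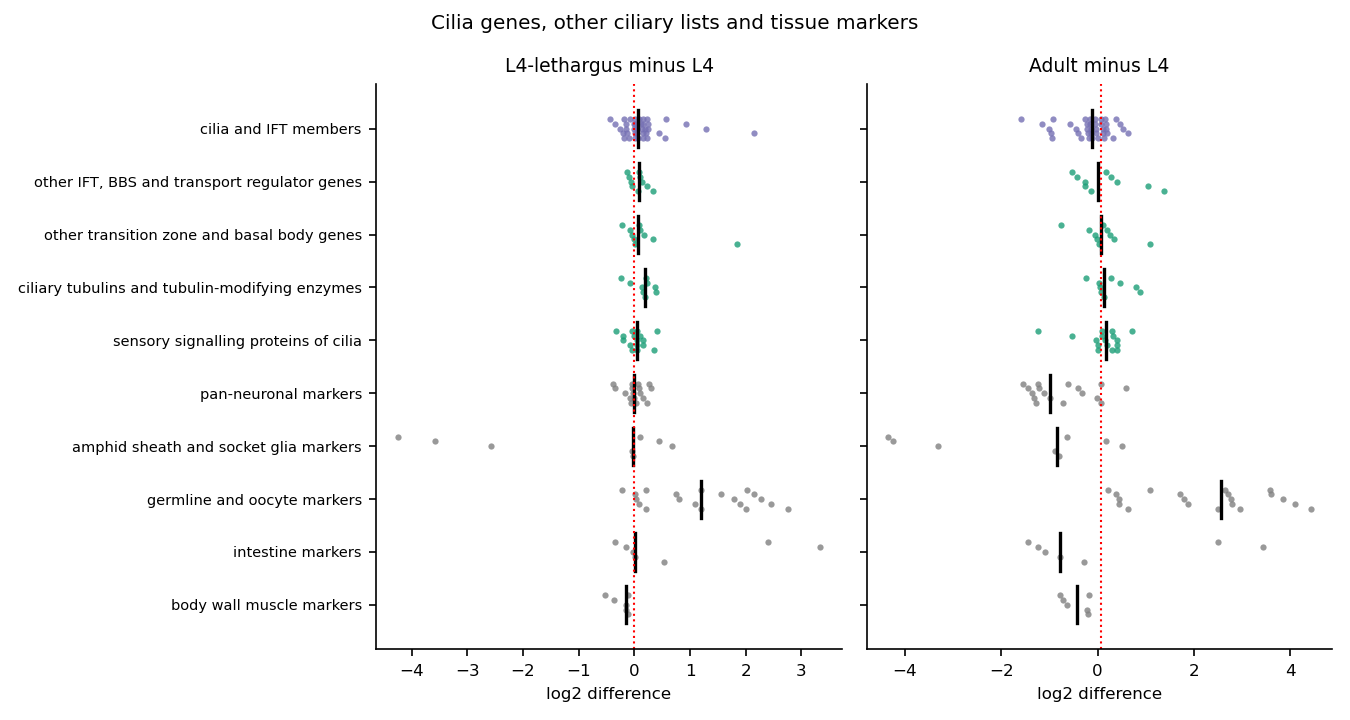
Log2 difference of each gene (points) and list median (bars) for lethargus minus L4 and Adult minus L4, for the cilia genes, further ciliary lists and tissue markers. The dotted line is the median of all genes. The cilia genes' medians are 0.07 and -0.11, where that line stands at 0.00 and 0.08. In Adult minus L4 the pan-neuronal median is -0.98 and the germline median 2.57. With control scaling the cilia median for Adult minus L4 becomes 0.23 and the median of all genes 0.42.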

How the data were processed

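The study hybridised RNA from pools of animals, amplified with the NuGEN Ovation V2 kit, to Affymetrix C. elegans Genome Arrays, per the labels' protocols. The deposited values are log2 intensities that the authors made with RMA, per the submitters' processing notes. RMA corrects background, makes the arrays' distributions alike and summarises each probe set. A global rise or fall of RNA can therefore not be read from them. No build is given for the probe annotation in the sources used here.

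From these values 77 control probe sets were left out and 22548 were fitted with limma 3.58.1 in R 4.3.3, with a mean per stage over all 15 arrays. P-values were doubled, as in the series design, and adjusted by Benjamini-Hochberg over all probe sets. Adjusted p-values in the text are limma's. R/maanova, which that design names, was not run. Of the probe sets, 20766 name 1 gene, 887 several and 895 none. A fold against a stage below the background bound (32 control probe sets of other organisms) uses the bound. All measured members are reported, with at most 3 called genes per further list and comparison and 2 per marker list. Members and lists were chosen with earlier results of these data known. Alternatives were other scalings, probe-set rules, filters, priors, array weights, a replicate block and leaving out each array. The authors left out 1 sample per stage, so each spread is that of the arrays kept. The number of arrays limits the precision, and nothing states how separately the pools were grown. The p-values therefore reflect only how much the pools that were kept varied. The test was checked on simulated data in which 200 of 22548 probe sets changed in lethargus against L4. It recovered 58% of 1.5-fold, 80% of 2-fold, 100% of 4-fold and 96% of 8-fold changes, with 4 false calls. A gene that was not called may therefore still differ by a small amount. In the data a far larger share was called (31.6% of all genes in lethargus against L4), and the Adult comparisons were not simulated. The simulated rates therefore need not hold for the comparisons reported here.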

Additional observations from a re-analysis of the deposited data

Results flagged for a closer look

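Each gene was checked for 1 array far from the other 4 of its stage, by Dixon's criterion. Of 117 groups of 5 arrays, 9 met it, and chance alone gives about 1 in 20. In lethargus, *daf-10* on replicate 4 was 5.18 against 6.41 to 6.78 on the others, *bbs-2* on replicate 2 was 5.23 against 4.86 to 4.95, *mks-3* on the same array was 4.92 against 4.42 to 4.55, *dyf-2* on replicate 3 was 6.80 against 6.04 to 6.25, and *dyf-11* on replicate 5 was 6.52 against 6.36. In L4, all on replicate 2, *che-2* was 5.23 against 4.86 to 4.92 and *osm-6* was 3.88 against 4.39 to 4.52. In Adult, *osm-1* on replicate 2 was 7.36 against 6.71 to 6.86, and *xbx-3* on replicate 1 was 4.11 against 4.26 to 4.32. The calls of *daf-10* and *osm-6* in lethargus against L4 were kept without each array in turn, and that of *dyf-2* was lost without lethargus replicate 3.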

How the results depend on the processing

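Of 50 called differences of members over the 4 comparisons, 31 kept direction and call under each of 28 alternatives in which the gene was fitted, and 19 lost the call under at least 1. Of these, *nphp-4* in Adult against L4 turned to 0.00 under hybridisation-control scaling, and *osm-5* in lethargus against the midpoint turned to -0.04 without shared-probe probe sets.

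Percentages in brackets are the shares of all genes fitted under the same setting, and none was computed for the fold minimum. For lethargus against L4 the count of rises was 3 with a 1.5-fold minimum. It was 1 of the 9 members left without dim probe sets (20.4%). The count of falls was 0 with the fold minimum or hybridisation-control scaling (11.4%). It was 1 with the replicate block (14.3%), a trended robust prior (16%), no dim (20.3%) or no shared-probe probe sets (15.6%). For lethargus against Adult, rises were 9 under median-centring (19%), 8 under hybridisation-control scaling (17.7%) and 20 with array weights (30.2%). They were 5 without dim (33.9%) and 9 without shared-probe probe sets (25.7%). Falls were 2 with the fold minimum, 10 under median-centring (53.7%) and 7 after quantile normalization again (31.9%). They were 9 under control scaling (53.7%) and 1 without shared-probe probe sets (28.8%). The median was -0.07, -0.10 and 0.32 under median-centring, control scaling and the dim filter, beside -0.34, -0.36 and -0.04 over all genes. For Adult against L4, rises were 6 with array weights (35.6%) and 5 with cyclic loess (28.2%) or undoubled p-values (34%). They were 1 with the fold minimum or without shared-probe probe sets (28.6%). Under median-centring they were 12 (49.3%), after quantile normalization 7 (30.6%) and under control scaling 15 (57.5%). Falls were 4 without dim (37%) and 3 without shared-probe probe sets (28.4%). The median was 0.10 and 0.23 under median-centring and control scaling, beside 0.29 and 0.42 over all genes. Against the midpoint, rises were 6 with the fold minimum and 4 without dim probe sets (24.3%). Falls were 4 with cyclic loess (18.9%) or undoubled p-values (27.3%), 0 with the fold minimum and 6 under median-centring (41.7%). They were 5 after quantile normalization (25.5%) or control scaling (31.8%), and 1 without dim (31.3%) or without shared-probe probe sets (22.1%). The median was -0.02, 0.03 and 0.04 under median-centring, control scaling and the dim filter, beside -0.21, -0.17 and -0.08 over all genes. The cause was not tested, apart from the smaller number of genes under a filter.

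Leaving out 1 array gave 5 to 6 rises, 0 to 2 falls and medians of 0.04 to 0.09 for lethargus against L4, 11 to 15, 4 to 5 and 0.14 to 0.21 against Adult, 3 to 5, 8 to 10 and -0.14 to -0.05 for Adult against L4, and 9 to 12, 1 to 4 and 0.12 to 0.15 against the midpoint. The falls in lethargus became 0 without L4 replicate 2 or 5 or lethargus replicate 1, and 1 without L4 replicate 3 or 4 or lethargus replicate 3, 4 or 5. Rises in Adult against L4 became 5 without Adult replicate 1 or L4 replicate 2. Falls against the midpoint became 4 without Adult replicate 1 and 1 without lethargus replicate 1 or 4. Same-numbered arrays did not deviate together (correlations -0.240 to 0.132 over 15 pairs). This cannot show whether they were collected or processed together, and the labels do not say. With the replicate block the counts of rises and falls were 6 and 1, 12 and 4, 3 and 8, and 11 and 3 in the same order. Over all genes the shares were 15% and 14.3%, 25.5% and 30.1%, 29.8% and 27.8%, and 18% and 22.1%.

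Genes below background are limited by signal, and 13 of the 39 members were read from probe sets that share probes with other transcripts.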

Other observations

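Among 16 sensory signalling proteins of cilia, 1 rose in lethargus against L4, and 6 rose and 2 fell in Adult against L4. The riser in lethargus was *gcy-23*, a receptor guanylyl cyclase of a thermosensory neuron, which differed by 0.35 and, in Adult against L4, by 0.71, below background throughout. The 2 falls in Adult were *osm-10*, a protein of osmotic avoidance (at least 1.16-fold), and *ocr-2*, a TRPV channel subunit. Among 9 ciliary tubulins and tubulin-modifying enzymes, 1 rose in lethargus and 3 rose in Adult against L4. The tubulin polyglutamylase gene *ttll-4* rose in both, by 0.38 and 0.88. Over all 45 further ciliary genes measured of 53 listed, 3 rose and none fell in lethargus against L4 by limma, beside 16.0% and 15.6% of all genes. In Adult against L4 14 rose and 7 fell, beside 30.8% and 28.7%. At an unadjusted p under 0.05, 10 rose and 2 fell in lethargus against L4, and shares over all genes were not computed at that threshold. Medians were 0.07 and 0.13, where the members of the main list had 0.07 and -0.11.

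Leaving out 1 array also added calls. Without Adult replicate 2, *tub-1* fell from L4 to Adult by 0.65 (adjusted p = 0.00524). Without Adult replicate 1, Adult replicate 3 or L4 replicate 2, *klp-20* rose from L4 to Adult (adjusted p 0.024 to 0.0352).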
